A study of Mus musculus with 6 samples.

Results

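Cadherins, desmosome proteins and EpCAM hold epithelial cells to their neighbours, and their mRNAs were followed in spheroids of 4T1, a mouse triple-negative breast cancer line. The group comprised 10 genes, taken by symbol from the 48820 gene identifiers of the count table: Cdh1, Cdh2, Cdh3 and Cdh11 among the cadherins, Epcam, and the desmosome genes Dsg2, Dsp, Jup, Pkp1 and Pkp3. Of these, 7 passed the filter on low counts and were tested. Spheroids of a line labelled LATS1/2 double-knockout (dKO), which lacks by its label the kinases that restrain YAP and TAZ in the Hippo pathway, were compared with spheroids of wild-type (WT) 4T1 cells, with 3 libraries in each group. Every culture was kept in the same serum-containing medium. The labels give neither the method of knockout nor the number of clones. They call the libraries biological replicates without saying whether these came from separate cultures, so p-values measure the spread between these libraries, which may be technical.

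In an epithelium, the extracellular part of a cadherin binds cadherins on the next cell, while its tail holds catenins that connect to actin. Desmosomes use a related design: desmogleins and desmocollins cross the membrane, plakoglobin and plakophilins bind their tails, and desmoplakin ties this plaque to keratin filaments. EpCAM is a separate, single-pass epithelial adhesion and signalling protein that is abundant in many carcinomas.

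Total counts ran from 38194478 to 49630116 per library. Lats1 was lower and Lats2 higher in the libraries labelled dKO (log2 fold changes -1.59 and 1.52, edgeR adjusted p = 4.66e-07 and 3.46e-05), so mRNA levels do not check the Lats2 knockout and directions are between libraries as labelled. The first principal component held 82.0% of the variance and separated the groups, and on the second component dKO 3 and WT 2 were set off from their replicates. The 7 listed epithelial markers summed to between 4097 and 4725 CPM (counts scaled to library size with TMM factors) in the libraries labelled dKO and between 5307 and 5420 CPM in WT. They did not move one way: Krt8, Krt18 and Cd24a fell, Krt19 and Muc1 rose, and Krt7 and Cldn4 were not called. Summed levels were 114 to 188 CPM against 12.7 to 18.6 CPM in WT for 8 basal and myoepithelial markers, 4.68 to 7.57 CPM against 41.7 to 66.1 CPM in WT for 10 fibroblast markers, 77.0 to 208.7 CPM against 3.38 to 16.5 CPM in WT for 9 leukocyte markers, and 3.33 to 6.36 CPM against 21.7 to 25.9 CPM in WT for 8 endothelial markers. Krt5, Lum, Thy1, Cd3e, Kdr, Cldn5 and Emcn were at 0 counts in every library. The part of the moving markers in the results was not tested, and in bulk RNA fewer cells of a type and less RNA per cell cannot be told apart.

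Of the 7 tested genes, Cdh1 and Dsp rose in the libraries labelled dKO, Epcam, Jup and Pkp3 fell, and Dsg2 and Pkp1 did not pass the test. A gene was called at an edgeR adjusted p under 0.05, and 57.3% of all 15807 tested genes were called at that threshold, 28.6% higher and 28.7% lower, so 5 calls among 7 genes are not a result about this group. The group did not shift as a block. The summed level of the 10 genes was 2148 to 2235 CPM in the libraries labelled dKO and 2151 to 2276 CPM in WT, while the level of single genes changed up to 2.76-fold within it. This sum is not scaled to gene length. Long genes such as Dsp (9659 bases of merged exons) weigh more in it than short ones such as Epcam (2195 bases). It therefore does not show an equal summed level per kilobase. The groups' ranges did not overlap for 6 of the 7 tested genes, against 65.6% of all tested genes.

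**Figure D1:**
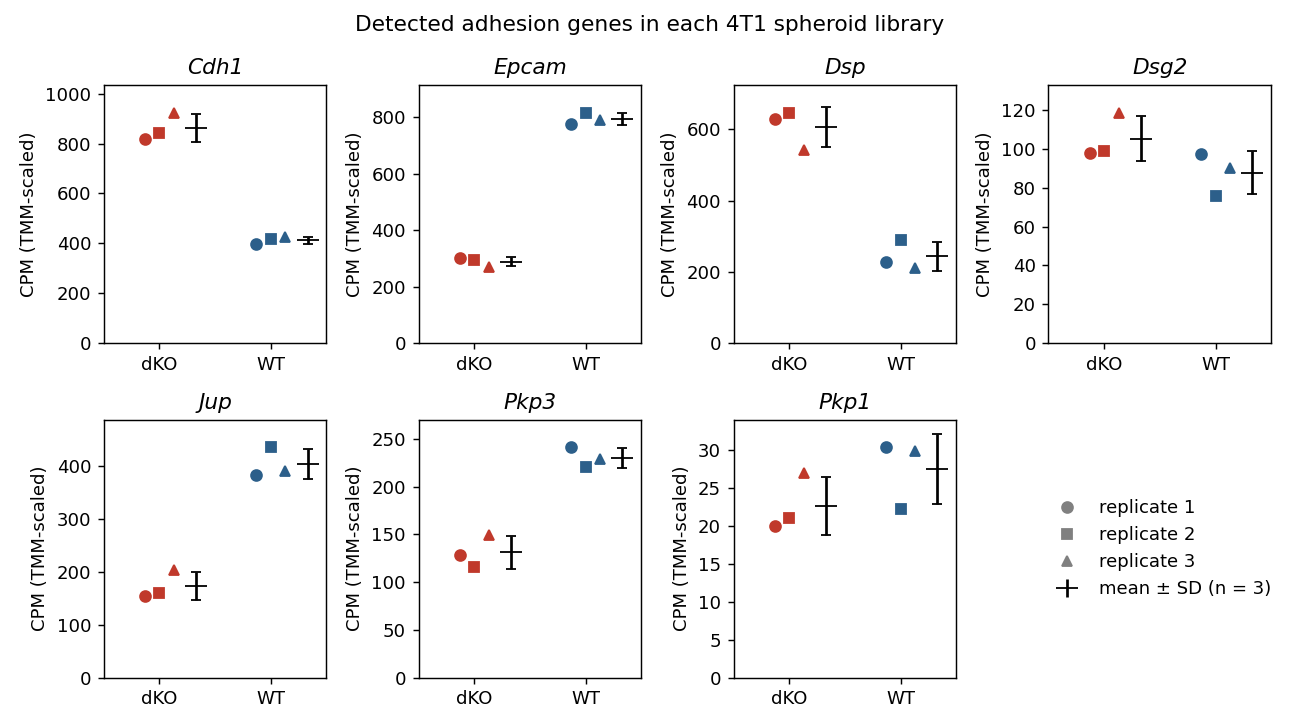
Levels of the 7 detected adhesion genes in CPM (linear axes from 0), with dKO left of WT, 1 symbol per library, and the mean ± SD of 3 libraries beside each group. Cdh1 and Dsp are higher and Epcam, Jup and Pkp3 lower in every library labelled dKO, Pkp1 overlaps between groups, and the Dsg2 ranges nearly touch, at 98.0 CPM in dKO 1 and 97.3 CPM in WT 1.

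Promoter windows were available for Epcam, Jup and Dsp, which moved in different directions, and are shown so that the regulatory sequence can be read beside the levels. Each RefSeq window (GRCm38.p6) runs from 250 bases before to 50 bases after the annotated start, 5′ to 3′ on the gene's strand, with capitals marking the motif CACCTG or its reverse complement CAGGTG, the E-box bound by SNAIL and ZEB repressors. The windows are chr17:87635729-87636028 on the plus strand for Epcam, chr11:100397741-100398040 on the minus strand for Jup and chr13:38151044-38151343 on the plus strand for Dsp.
Epcam: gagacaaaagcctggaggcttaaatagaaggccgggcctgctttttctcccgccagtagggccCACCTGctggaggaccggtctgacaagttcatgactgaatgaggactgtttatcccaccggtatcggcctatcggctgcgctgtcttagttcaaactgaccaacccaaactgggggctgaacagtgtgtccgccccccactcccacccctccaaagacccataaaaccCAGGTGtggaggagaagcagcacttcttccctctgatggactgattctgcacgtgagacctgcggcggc
Jup: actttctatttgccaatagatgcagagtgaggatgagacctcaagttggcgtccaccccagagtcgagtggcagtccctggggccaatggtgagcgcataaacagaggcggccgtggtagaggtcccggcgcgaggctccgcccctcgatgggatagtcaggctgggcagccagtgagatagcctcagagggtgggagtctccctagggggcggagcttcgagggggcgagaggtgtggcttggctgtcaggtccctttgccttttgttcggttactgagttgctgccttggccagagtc
Dsp: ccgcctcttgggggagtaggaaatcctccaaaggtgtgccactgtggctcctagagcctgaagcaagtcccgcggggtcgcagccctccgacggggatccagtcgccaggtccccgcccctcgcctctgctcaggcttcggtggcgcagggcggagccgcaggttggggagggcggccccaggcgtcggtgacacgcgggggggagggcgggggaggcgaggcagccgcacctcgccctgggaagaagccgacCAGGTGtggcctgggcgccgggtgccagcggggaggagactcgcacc
The Epcam window held 2 such E-boxes, beginning 187 and 19 bases before the start. The Dsp window held 1, beginning at base 4 of the transcript, and the Jup window held none. Searched on both strands, this motif occurs in 20.21% of the 32851 promoter windows of the table. The TEAD motif GGAATG, found in 14.66% of all windows, and the grainyhead-like motif AACCGGTT, found in 0.15%, occurred in none of the 3. The matches did not overlap, and a match describes letters in the window, not binding. The GC content was 57.0% for Epcam, 60.7% for Jup and 73.0% for Dsp, against a median of 52.7% over all windows.

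Cdh1 was the only one of the 4 cadherins with more than a trace of RNA, and it rose about 2.09-fold. Cdh1 (ENSMUSG00000000303, GRCm38 chromosome 8, 106603351 to 106670246, plus strand) encodes E-cadherin, the main cadherin of epithelial adherens junctions. It had 819, 841 and 924 CPM in dKO 1, dKO 2 and dKO 3, against 396, 416 and 425 CPM in WT 1, WT 2 and WT 3. All 3 libraries labelled dKO lay above all 3 WT libraries, and the spread within each group was small beside the gap. The log2 fold change was 1.06 ± 0.07 (SE), with a 95% interval of 0.90 to 1.23 (edgeR adjusted p = 3.71e-06).

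Cdh2, the gene of N-cadherin, Cdh3, the gene of P-cadherin, and Cdh11, the gene of a cadherin of mesenchymal cells, were at 0 counts in dKO 1, dKO 3 and every WT library. In dKO 2 they had 14, 10 and 4 counts, or 0.344, 0.246 and 0.0983 CPM. A read pair may add up to 4 counts in this table, so a library at 0 allows up to 12 counts, which is 0.242 to 0.314 CPM. The trace in dKO 2 was therefore near or under this limit, which covers counting error only, and these 3 genes failed the filter and give no fold change. Higher levels of Cdh2 or Cdh11, often followed as signs of a mesenchymal state, or of Cdh3, a gene of basal and myoepithelial mammary cells, were not detectable in either group at this depth. Cdh3 lies on the same strand as Cdh1, 46053 bases before it, so that the abundant and the near-silent cadherin gene are close neighbours on chromosome 8. The genes Gm10073 and 1110028F18Rik lie between them.

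Scaled to merged exon length, Cdh1 made up 100% of the cadherin RNA of the group in 5 libraries and 99.94% in dKO 2. Among 18 further cadherin genes only 2 passed the filter. Cdh24, a classical cadherin of type II, had 12.9, 9.95 and 11.4 CPM in dKO 1, dKO 2 and dKO 3, against 33.4, 31.0 and 29.8 CPM in WT 1, WT 2 and WT 3. It fell by 1.46 ± 0.13 on the log2 scale (edgeR adjusted p = 1.78e-05). Cdh15, a muscle cadherin, stood at 1.09 ± 0.950 CPM in the libraries labelled dKO and 0.405 ± 0.0971 CPM in WT (SD, n = 3) and did not pass (edgeR adjusted p = 0.0981). Its level in dKO 3 was 2.19 CPM, against 0.497 CPM in dKO 1 and 0.590 CPM in dKO 2, and its log2 fold change of 1.42 became 0.42 without dKO 3 (edgeR adjusted p = 0.601). Cdh16, a kidney cadherin gene named after its values were seen, had 48, 22 and 0 counts in dKO 1, dKO 2 and dKO 3, against 4, 0 and 0 counts in WT 1, WT 2 and WT 3. It failed the filter, and was tested and called higher without dKO 3 (edgeR adjusted p = 0.0111). Of the 16 that failed the filter, Cdh4, Cdh6, Cdh7, Cdh8, Cdh9, Cdh12, Cdh18, Cdh19 and Cdh22 were at 0 in every library.

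Epcam fell, with a mean 2.76-fold higher in WT, the largest change among the tested genes of the group. Epcam (ENSMUSG00000045394, chromosome 17, 87635979 to 87651129, plus strand) had 300.5, 294 and 271 CPM in dKO 1, dKO 2 and dKO 3, against 776, 817 and 792 CPM in WT 1, WT 2 and WT 3. The ranges were far apart. The log2 fold change was -1.46 ± 0.07 (SE), with an interval of -1.62 to -1.31 (edgeR adjusted p = 4.68e-07). Epcam nevertheless stayed abundant: per kilobase of exon, it was above 97.8% of the tested genes in the libraries labelled dKO and above 99.3% in WT.

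Cd44, a hyaluronan receptor gene whose product has been found in EpCAM complexes, had 126 ± 4.66 CPM in the libraries labelled dKO and 761 ± 67.5 CPM in WT, and its log2 fold change was -2.59 ± 0.08 (edgeR adjusted p = 6.34e-08). Among 8 tested EpCAM partners and relatives there were 2 rises, 4 falls and 2 genes without a call, and their median log2 fold change was -0.44, against -0.01 over all tested genes. That is 75.0% called, against 57.3% of all tested genes. Cldn7, the claudin that binds EpCAM, was among the falls, at 52.4 ± 6.63 CPM in the libraries labelled dKO and 103 ± 16.6 CPM in WT (log2 fold change -0.97 ± 0.14, edgeR adjusted p = 0.000305). St14, the gene of matriptase, a protease that cleaves EpCAM, did not pass, with 245 CPM in each group (edgeR adjusted p = 0.994). Cldn7 and St14 were named after their values were seen.

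The genes whose 6-library profile was most like that of Epcam, by Euclidean distance between log2 CPM values centred on the WT mean over 10738 other genes, were Mdm4, a p53 inhibitor gene, Igf1r, a growth factor receptor gene, and Ttyh2, a gene of the tweety family. Their distances were 0.108, 0.139 and 0.148, and their log2 fold changes -1.47, -1.44 and -1.45 (edgeR adjusted p = 7.93e-07, 3.28e-07 and 1.75e-05). Fold changes near that of Epcam follow from this choice, which used the same libraries, so they are not evidence of a link with Epcam.

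The 5 desmosome genes split, with Dsp up, Jup and Pkp3 down, and Dsg2 and Pkp1 not called. Dsg2 (ENSMUSG00000044393, chromosome 18, 20558074 to 20604521), which encodes the desmoglein of simple epithelia, had 98.0, 99.2 and 119 CPM in dKO 1, dKO 2 and dKO 3, against 97.3, 75.9 and 90.3 CPM in WT 1, WT 2 and WT 3. The libraries labelled dKO lay just above WT, by less than 1 CPM between the nearest libraries. The log2 fold change of 0.26 ± 0.11 did not pass (edgeR adjusted p = 0.0773), and its unadjusted interval ran from 0.004 to 0.52. It was 0.17 without dKO 3, 0.17 without WT 2, and 0.07 without WT 2 and dKO 3 together (edgeR adjusted p = 0.329). Dsg2 held 97.1% ± 0.716 of the length-scaled desmoglein RNA in the libraries labelled dKO and 97.3% ± 0.140 in WT (SD, n = 3), the rest coming from Dsg3, Dsg4 and the near-identical Dsg1 copies, between which reads may be split.

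Dsp (ENSMUSG00000054889, chromosome 13, 38151294 to 38198577, plus strand) encodes desmoplakin, the plakin that anchors keratin filaments. It had 628, 647 and 543 CPM in dKO 1, dKO 2 and dKO 3, against 227, 290.3 and 211 CPM in WT 1, WT 2 and WT 3. WT 2 was the highest WT library and dKO 3 the lowest labelled dKO, and the groups stayed well apart. Dsp rose by 1.32 ± 0.13 on the log2 scale (SE), with an interval of 1.03 to 1.60 (edgeR adjusted p = 2.77e-05).

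Jup (ENSMUSG00000001552, chromosome 11, 100368958 to 100397763, minus strand) encodes plakoglobin, an armadillo protein of both desmosomes and adherens junctions. It had 155, 161 and 202 CPM in dKO 1, dKO 2 and dKO 3, against 383, 435 and 390.0 CPM in WT 1, WT 2 and WT 3. Every library labelled dKO was below every WT library, with dKO 3 nearest to WT. On the log2 scale Jup changed by -1.22 ± 0.11 (SE), with an interval of -1.47 to -0.97 (edgeR adjusted p = 1.97e-05).

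Pkp3 (ENSMUSG00000054065, chromosome 7, 141078218 to 141090510, plus strand) encodes plakophilin 3, which binds desmosomal cadherins and desmoplakin. It had 128, 115 and 149.6 CPM in dKO 1, dKO 2 and dKO 3, against 241, 220.2 and 228 CPM in WT 1, WT 2 and WT 3. The groups did not overlap. Pkp3 changed by -0.81 ± 0.10 on the log2 scale (SE), with an interval of -1.03 to -0.59 (edgeR adjusted p = 0.000123).

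Pkp1 (ENSMUSG00000026413, chromosome 1, 135871395 to 135919207, minus strand) encodes plakophilin 1, best known from stratified epithelia. It had 19.9, 21.0 and 27.0 CPM in dKO 1, dKO 2 and dKO 3, against 30.3, 22.2 and 29.9 CPM in WT 1, WT 2 and WT 3. The ranges overlapped, since dKO 3 lay above WT 2. The log2 fold change of -0.28 ± 0.16 did not pass (edgeR adjusted p = 0.177), with an interval of -0.65 to 0.09. It was called lower without WT 2 (-0.41, edgeR adjusted p = 0.0422) and without WT 2 and dKO 3 together (-0.55, edgeR adjusted p = 0.000879), and the adjusted p ran from 0.000879 to 1.00 over all alternatives. Gm36938, annotated on the same strand within the Pkp1 locus, stood at 3.10 ± 0.631 CPM in the libraries labelled dKO and 14.0 ± 2.66 CPM in WT (SD, n = 3), so the assignment of reads between them is uncertain.

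**Figure D2:**
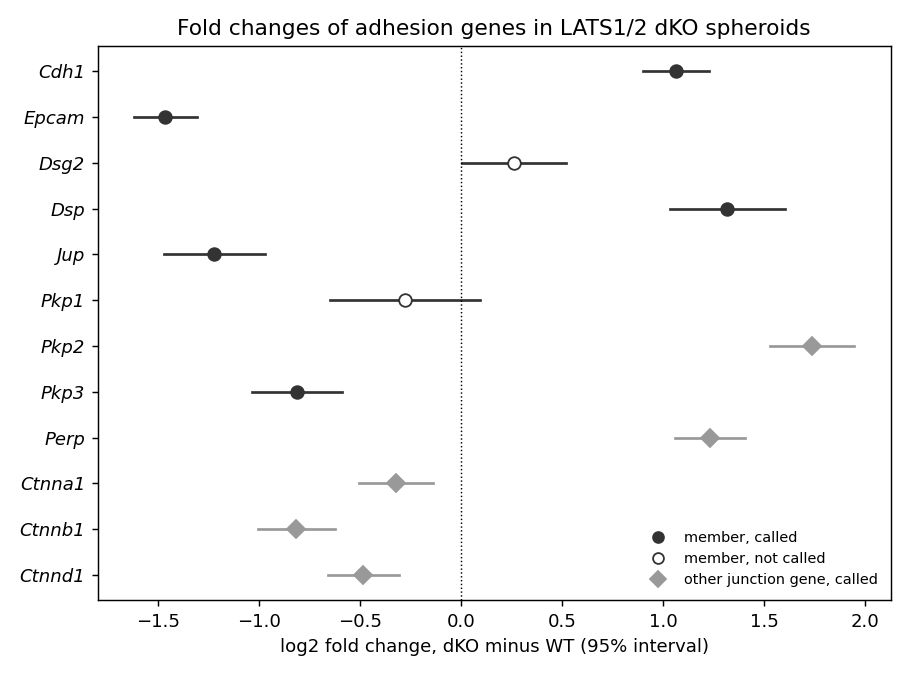
Log2 fold changes, dKO minus WT, with 95% intervals from the edgeR fit, for the 7 tested genes of the group (circles, filled where called) and for Pkp2, Perp and 3 catenin genes (diamonds). Cdh1 and Dsp lie right of 0 and Epcam, Jup and Pkp3 left of it, the Pkp1 interval includes 0 and that of Dsg2 begins at 0.004.

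Pkp2, a plakophilin gene outside the group, rose while Pkp3 fell. Its product is the plakophilin of heart and simple epithelia. Pkp2 had 83.1, 83.5 and 80.6 CPM in dKO 1, dKO 2 and dKO 3, against 25.7, 26.2 and 22.1 CPM in WT 1, WT 2 and WT 3, and rose by 1.74 ± 0.09 on the log2 scale (edgeR adjusted p = 8.92e-07). Of the summed length-scaled RNA of Pkp1, Pkp2 and Pkp3, Pkp2 held 27.6% ± 2.95 in the libraries labelled dKO and 6.27% ± 0.672 in WT, and Pkp3 held 64.4% ± 2.61 in the libraries labelled dKO and 86.3% ± 0.376 in WT (SD, n = 3). Pkp4, a more distant p120-catenin relative listed with the catenins, is not in these shares.

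Within the 5 desmosome genes of the group, Dsp held 46.3%, 47.8% and 37.8% of the length-scaled RNA in dKO 1, dKO 2 and dKO 3, against 14.0%, 17.5% and 13.5% in WT 1, WT 2 and WT 3. Jup held 18.7% ± 2.14 in the libraries labelled dKO and 37.4% ± 1.85 in WT (SD, n = 3). The ratio of Dsp to Jup per kilobase was 2.70, 2.68 and 1.79 in dKO 1, dKO 2 and dKO 3, against 0.395, 0.445 and 0.361 in WT 1, WT 2 and WT 3. On this length scale Dsp lay above Jup in every library labelled dKO and below it in every WT library. Per kilobase of the longest transcript Dsp lay below Jup in dKO 3 as well, with shares of 28.7% for Dsp and 32.0% for Jup in that library.

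**Figure D3:**
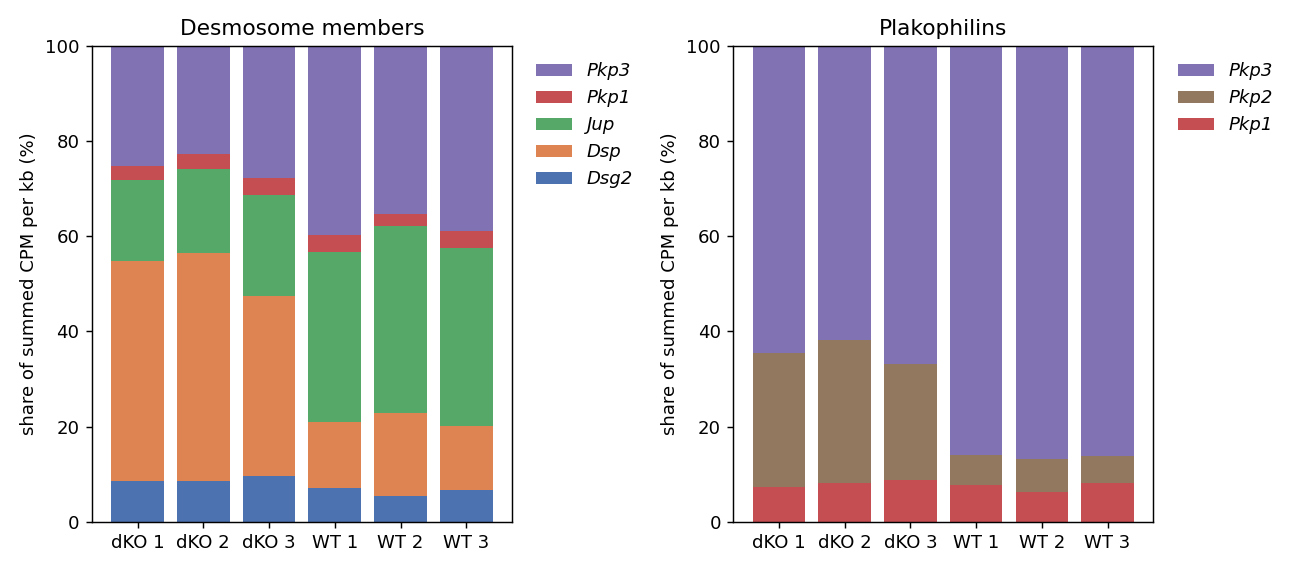
Share of the summed CPM per kilobase of merged exon length, in percent, for the 5 desmosome genes of the group (left) and for Pkp1, Pkp2 and Pkp3 (right), with 1 bar per library. The Dsp segment is 37.8% to 47.8% in the libraries labelled dKO and 13.5% to 17.5% in WT, and the Pkp2 segment is 24.4% to 30.2% in the libraries labelled dKO and 5.64% to 6.97% in WT.

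On the scale of mean CPM per kilobase of merged exon length, the order in the libraries labelled dKO was Cdh1 (188), Epcam (131), Dsp (62.7), Pkp3 (36.3), Jup (26.8), Dsg2 (12.7) and Pkp1 (4.51). In WT it was Epcam (362), Cdh1 (90.2), Pkp3 (63.6), Jup (62.6), Dsp (25.1), Dsg2 (10.6) and Pkp1 (5.46). Neighbours in each order did not overlap between libraries, except Pkp3 and Jup in WT. Cdh1 and Epcam exchanged the first place, with a ratio of Cdh1 to Epcam of 1.44 ± 0.175 in the libraries labelled dKO and 0.249 ± 0.00739 in WT (SD, n = 3). The place of Jup depends on the length used: per kilobase of the longest transcript it averaged 53.9 in the libraries labelled dKO, above Pkp3 at 44.9 and overlapping with it and with Dsp, and 126 in WT, above Cdh1 at 93.1.

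Other desmosome genes also split. Perp, which encodes a desmosome-associated membrane protein, had 613 ± 20.0 CPM in the libraries labelled dKO and 261 ± 20.3 CPM in WT (SD, n = 3), and it rose by 1.23 ± 0.08 on the log2 scale (edgeR adjusted p = 2.1e-06). Among the 12 listed genes, 7 were tested, of which 2 were called higher, 4 lower and 1 neither, or 85.7% called against 57.3% of all tested genes. Their median log2 fold change was -0.52, or -0.51 when Dsg1c and Dsc2 take the smallest change that a count of 0 allows. Dsc2, the desmocollin gene of simple epithelia, was chosen after its values were known. It was at 0 counts in all 3 libraries labelled dKO, against 6.02, 3.03 and 7.33 CPM in WT 1, WT 2 and WT 3, at least 18.4-fold lower against the limit of 12 counts per library (edgeR adjusted p = 4.73e-05). Dsc3 was at 0 in every library and Dsc1 did not pass the filter.

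The genes of alpha-, beta- and p120-catenin, which cadherin tails carry, were lower in the libraries labelled dKO, opposite to Cdh1. Ctnnb1, the beta-catenin gene, had 779, 763 and 709.9 CPM in dKO 1, dKO 2 and dKO 3, against 1351, 1188 and 1422 CPM in WT 1, WT 2 and WT 3, and it fell by 0.82 ± 0.08 on the log2 scale (edgeR adjusted p = 4.4e-05). Ctnnd1, the p120-catenin gene, and Ctnna1, the alpha-catenin gene, had log2 fold changes of -0.48 ± 0.08 and -0.32 ± 0.08 (edgeR adjusted p = 0.000636 and 0.00823). In the same list Arvcf and Pkp4, genes of p120-catenin relatives, rose as Cdh1 did. Arvcf had 65.0 ± 12.4 CPM in the libraries labelled dKO and 31.9 ± 2.76 CPM in WT, and Pkp4 had 188 ± 12.2 CPM in the libraries labelled dKO and 70.5 ± 10.3 CPM in WT (log2 fold changes 1.03 and 1.42, edgeR adjusted p = 0.000263 and 7.99e-06). These 5 genes were named after their values were seen. The ratio of Cdh1 to Ctnnb1 per kilobase was 1.31 ± 0.150 in the libraries labelled dKO and 0.357 ± 0.0356 in WT (SD, n = 3). Which gene stood higher in the libraries labelled dKO depends on the length used. Per kilobase of the longest transcript, Cdh1 averaged 194 and Ctnnb1 207 there, against 93.1 and 364 in WT. Jup, whose protein can take the place of beta-catenin on cadherin tails, held 15.7% ± 2.64 of the length-scaled RNA of Jup and Ctnnb1 in the libraries labelled dKO and 19.8% ± 2.57 in WT, and these shares overlapped between groups, since dKO 3 lay above WT 1 and WT 3.

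The list of catenin, nectin and afadin junction genes had 15 tested, with 9 higher, 5 lower and 1 not called, or 93.3% called against 57.3% of all tested genes, and its median log2 fold change was 0.65. Ajuba, which encodes a LIM protein of adherens junctions that also binds LATS kinases, had 324 ± 18.9 CPM in the libraries labelled dKO and 85.3 ± 5.63 CPM in WT (log2 fold change 1.92 ± 0.08, edgeR adjusted p = 2.31e-07). Afdn, the afadin gene, which connects nectins to actin, had 625 ± 10.6 CPM in the libraries labelled dKO and 260.2 ± 13.5 CPM in WT (log2 fold change 1.27 ± 0.07, edgeR adjusted p = 8.77e-07). Afdn overlaps Tcte2 on the other strand, which reached at most 24.3 CPM in the libraries labelled dKO and 9.12 CPM in WT.

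Genes of proteases that cut cadherins or EpCAM were listed with Ncstn, Aph1a and Psenen, which encode other subunits of gamma-secretase. Among the 9 tested genes of this list, 2 were called higher, 4 lower and 3 neither, around a median log2 fold change of 0.12. The share called was 66.7%, against 57.3% of all tested genes. Without WT 2 and dKO 3 together, 5 rose. Adam15, a metalloprotease gene, had 44.7 ± 3.37 CPM in the libraries labelled dKO and 88.5 ± 3.98 CPM in WT, and Mmp14, a membrane metalloprotease gene, had 172 ± 21.5 CPM in the libraries labelled dKO and 320.2 ± 20.6 CPM in WT (edgeR adjusted p = 1.52e-05 and 6.52e-05).

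Regulators known to act on Cdh1 or on the epithelial state gave 7 falls, 3 rises and 3 genes without a call among 13 tested, and their median log2 fold change was -0.78. The share called was 76.9%, against 57.3% of all tested genes. Twist1, a repressor of Cdh1, was at 0 counts in every library labelled dKO, against 14.0, 16.4 and 11.3 CPM in WT 1, WT 2 and WT 3, at least 46.7-fold lower (edgeR adjusted p = 2.32e-06). Tcf3, the gene of E12 and E47, which can also repress Cdh1, had 73.4 ± 16.3 CPM in the libraries labelled dKO and 246 ± 10.4 CPM in WT (log2 fold change -1.75 ± 0.14, edgeR adjusted p = 1.26e-05). Of the SNAIL and ZEB genes in the list, named after their values were seen, Snai1 and Zeb2 fell. Snai1 had 7.05 ± 1.32 CPM in the libraries labelled dKO and 19.8 ± 2.63 CPM in WT (edgeR adjusted p = 0.000109). Zeb2 had 6.27 ± 1.35 CPM in the libraries labelled dKO and 21.1 ± 1.33 CPM in WT (edgeR adjusted p = 3.45e-05). Snai2 was at 0 counts in every library and Zeb1 did not pass the filter. Grhl2, an activator of Cdh1, named after its values were seen, had 65.6 ± 7.18 CPM in the libraries labelled dKO and 91.8 ± 7.40 CPM in WT and also fell (edgeR adjusted p = 0.00308). The other grainyhead-like genes in the list were not called lower. Grhl1 rose, at 9.20 ± 2.24 CPM in the libraries labelled dKO and 1.48 ± 0.655 CPM in WT (edgeR adjusted p = 0.000289). Grhl3 was not called (edgeR adjusted p = 0.217).

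**Figure D4:**
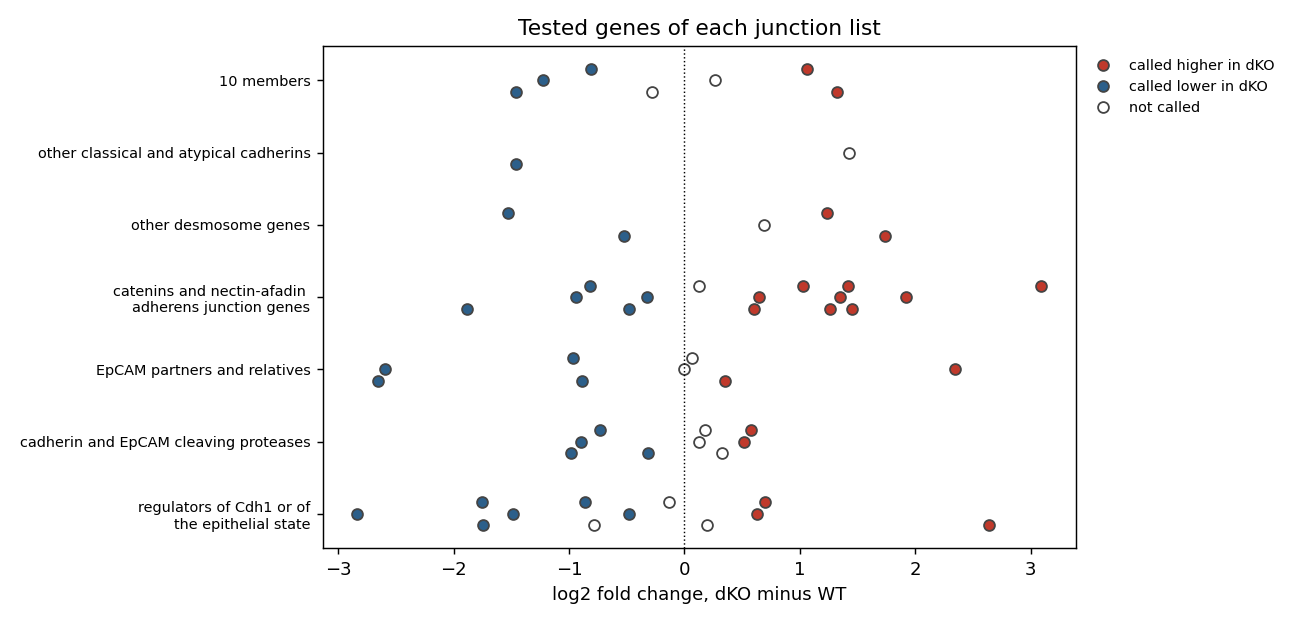
Log2 fold changes, dKO minus WT, of the tested genes in each junction list, 1 point per gene, with filled points called at an edgeR adjusted p under 0.05 and open points not called. Every list except the 2 tested further cadherins holds called genes on each side of 0, and Dsg1c, Dsc2 and Twist1, which were at 0 in every library labelled dKO, are not drawn.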

How the data were processed

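Per the submitters' processing notes, reads were processed with HISAT2 2.2.1 and StringTie 2.2.1 on GRCm38 (mm10). The authors deposited estimated counts per gene as unnormalized whole numbers. How reads were counted, with which annotation and whether by strand, is not given in these sources. The sample files equalled the series table in all 6 libraries. Values piled up at 4 (678 to 775 genes per library, against 273 to 367 at 5), as if 1 read pair could add 4 counts, so the limit for a gene at 0 is 12 counts. GENCODE M21 matched 48144 of 48820 identifiers.

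Counts were fitted with edgeR 4.0.16 in R 4.3.3 (TMM, filterByExpr, robust quasi-likelihood F-test, genotype only, Benjamini-Hochberg over 15807 genes), after tests on simulated data. SEs were derived from the log2 fold change and its F statistic, and intervals use the t distribution. Levels between genes are per kilobase of merged exons. Replicates of a group differed by more than sampling noise, with a mean chi-square per gene, on counts divided by 4, of 2.35 to 19.4. Dsp, Dsg2 and Cdh2 overlap weakly counted genes on the other strand, and Cdh11 overlaps genes on its own strand.

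The 10 genes, the lists and the tests were chosen with earlier results of these data known. Besides the 10 genes and Lats1 and Lats2, the 2 genes with the smallest adjusted p in each list were named, except 1 gene that is not reported here, and the 3 genes nearest in profile to the most changed of the 10 genes with at least 5 CPM in both groups. Alternatives covered normalization, filters, DESeq2 1.42.0, limma voom 3.58.1, counts divided by 4, thresholds, a replicate block, left-out libraries and transcript length.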

Additional observations from a re-analysis of the deposited data

How the results depend on the processing

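Under all 18 alternatives Cdh1, Dsp, Epcam, Jup and Pkp3 kept their direction and their call, with log2 fold changes of 1.01 to 1.10, 1.23 to 1.54, -1.49 to -1.40, -1.35 to -1.15 and -0.94 to -0.72, and Dsg2 was never called (0.07 to 0.34). Pkp1 was called lower without WT 2 alone, and also without WT 2 and dKO 3 together (-0.55). With single libraries left out its log2 fold change ran from -0.42 to -0.19. The 14 other genes under the naming rule kept direction and side in all 250 values. Against a 1.5-fold change, which asks for more by construction, 2197 genes were called higher and 2359 lower. The catenin list then had 3 falls, the EpCAM partners 1 rise and the regulators 1 rise. The protease list had 0 rises and 2 falls. Without WT 2 and dKO 3 together 5 genes of the protease list rose. There and by DESeq2, 1 further cadherin, Cdh16, was higher (0 to 1 with single libraries left out, 1 without dKO 3). The cause of these changes was not tested. With no count filter Cdh2, Cdh3 and Cdh11 were tested and not called (edgeR adjusted p = 0.166, 0.194 and 0.275). Of 28 share values, 21 moved by more than 1 SD with the longest transcript. Same-numbered libraries showed little joint deviation (correlations -0.06, 0.05 and 0.08), and not every library correlated best with its own number. With 3 libraries in each group, these correlations cannot settle whether the numbers mark pairs. With a replicate block 4338 genes were called higher and 4320 lower, and no call of the 10 genes changed. Depth limits statements on the genes at or near 0.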
